A study of Homo sapiens with 6 samples.

Results

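The annexins are a family of calcium-dependent, phospholipid-binding proteins, and 10 of their genes were followed here, ANXA1, ANXA2, ANXA3, ANXA4, ANXA5, ANXA6, ANXA7, ANXA8, ANXA8L1 and ANXA11. They were taken by gene symbol from a deposited table of 15024 genes, in which all 10 were found. The family was chosen by the fold changes between the sorted populations, so the difference of each member between them is a description and carries no test. The libraries were of MDA-MB-231, an established triple-negative breast cancer line with mesenchymal features, labelled as null for MLL3, a histone methyltransferase whose gene is KMT2C. Cells sorted as CD44+ and CD104high (n = 3) were set against a CD44+ population labelled CD104-/low, called CD104low from here on (n = 3). Both populations were Mll3-null and both came from cells kept for 14 days in 10 µM forskolin, which activates adenylyl cyclase and so protein kinase A. CD104 is the integrin beta-4 protein, the labels mark the CD104high libraries E/M and the CD104low libraries M, and the study concerns a hybrid state of the epithelial-mesenchymal transition. The sources used here do not say whether the null line is 1 clone, and untreated and wild-type cells were not analysed here. Replicates carry the numbers 1 to 3 in each population, with no word on what separates them, and p-values therefore measure only how far these 6 libraries differ among themselves.

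In the annexin core a set of repeated helical domains holds calcium ions against the acidic lipids of a membrane, phosphatidylserine above all, while the N-terminal tail differs between members and binds partners such as S100 proteins. Annexins are known for roles in membrane repair, in the traffic of vesicles and in the link between membranes and actin. ANXA8 is known from squamous and basal epithelia and from basal-like breast tumours, ANXA2 from the capture of plasminogen at the cell surface, and ANXA1 from the damping of inflammation through formyl peptide receptors.

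ANXA8L1 and ANXA8 are copies of one gene on chromosome 10, and their sequences are shown because they decide how far the reads of the pair can be told apart. On GRCh38 in GENCODE 29, ANXA8L1 (ENSG00000264230.9 in the table) spans 46375627 to 46391784 on the plus strand and ANXA8 (ENSG00000265190.6) spans 47460162 to 47484158 on the minus strand. Their longest annotated coding sequences have 1098 bases each and differ at 5 of them, an identity of 99.5%. Counted from 1 at the first base of the start codon, with the ANXA8 base first, the differences are T16G, C390T, A642G, G644C and T1053C. The 60 coding bases around A642G and G644C (positions 607 to 666, in exon 7 of each annotated transcript, ANXA8L1 at chr10:46384774-46384833 on the plus strand and ANXA8 at chr10:47474945-47475004 on the minus strand) follow, and then the 60 around C390T (positions 360 to 419, exon 4, ANXA8L1 at chr10:46382617-46382676 and ANXA8 at chr10:47477097-47477156), with the differing bases in capitals.
ANXA8L1, positions 607 to 666: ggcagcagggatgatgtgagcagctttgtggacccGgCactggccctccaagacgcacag
ANXA8, positions 607 to 666: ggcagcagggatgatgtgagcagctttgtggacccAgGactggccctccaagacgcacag
ANXA8L1, positions 360 to 419: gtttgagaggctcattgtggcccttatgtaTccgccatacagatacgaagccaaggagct
ANXA8, positions 360 to 419: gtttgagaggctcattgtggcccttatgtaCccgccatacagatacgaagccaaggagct
Of the 2938 different stretches of 31 bases in all annotated ANXA8L1 transcripts, 2542 (86.5%) also occur in ANXA8 transcripts, and they make up 50% of the 5080 stretches of ANXA8. In the ANXA8L1 coding sequence alone 957 of 1068 are shared, so unshared stretches also lie outside it. A read that lies wholly in shared sequence fits both genes, so the division of reads between the copies is an estimate, and their sum does not rest on it. The only other stretches of that length shared between members were 6 between ANXA3 and ANXA11. ANXA2 has 3 annotated processed pseudogenes, none of them in the table, which share 7.69% of its 31-base stretches, so some ANXA2 reads may come from them or go to them.

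The deposited values are read counts scaled to the library, and whole numbers recovered from them summed to between 53878182 and 60069719 in CD104high and between 49791498 and 54969422 in CD104low over the listed genes. ITGB4, the gene of the sort marker, was at 16463 ± 2616 in CD104high and 1699 ± 503 in CD104low (mean ± SD, 3 libraries each), which fits the labels. KMT2C gave reads in every library, at 3934, 3561 and 3952 in CD104high, against 2095, 2611 and 2814 in CD104low (log2 difference 0.62, SE 0.11, limma adjusted p = 0.0027). It was thus higher in CD104high, and values for the whole gene do not check its deletion. All 6 markers fixed for the line (VIM, CD44, KRT7, KRT8, KRT18, KRT19) were present. Of 5 leukocyte markers only LAPTM5 was in the table, at 380.4 to 560.7 in CD104high and 175 to 224.6 in CD104low. Of 3 endothelial markers only PECAM1 was, below 15 in every library. The 3 fibroblast markers DCN, LUM and PDGFRA summed to 107 to 368 in CD104high and 46.5 to 66.3 in CD104low. The libraries are labelled as a cell line, and where the reads of these markers came from was not tested.

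ANXA8L1 and ANXA8 had the widest differences of the family, both being higher in CD104high. ANXA8L1 was at 669, 507 and 1154 scaled reads in CD104high replicates 1 to 3, against 120, 106 and 175 in CD104low. Every CD104high library lay well above every CD104low library. The means were 777 ± 336 in CD104high and 134 ± 36.6 in CD104low (mean ± SD, 3 libraries each), a log2 difference of 2.48 (SE 0.30), or 5.57-fold on the log2(value + 1) scale. ANXA8 was at 2200.5, 1559 and 2744 in CD104high, against 494, 418 and 545 in CD104low, again without overlap. Its means of 2168 ± 593 in CD104high and 485 ± 64 in CD104low (mean ± SD, 3 libraries each) gave a log2 difference of 2.13 (SE 0.19). The authors' deposited table gives 2.54 for ANXA8L1 and 2.16 for ANXA8. In sorted bulk RNA, more cells that express a gene and more RNA per cell cannot be told apart.

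The sum of both copies was 2870, 2066 and 3897 in CD104high, against 613, 524 and 720 in CD104low. It averaged 2944 ± 918 in CD104high and 619 ± 98.2 in CD104low (mean ± SD, 3 libraries each), a log2 difference of 2.21 (SE 0.21) that does not depend on how reads were divided. ANXA8L1 held 23.3%, 24.6% and 29.6% of that sum in the CD104high libraries, against 19.5%, 20.3% and 24.3% in the CD104low libraries. Replicate 3 had the largest ANXA8L1 share in either population, and the ranges of the populations overlapped. By this estimated division ANXA8 was given more reads than ANXA8L1 in all 6 libraries, by 2.38 to 3.29 times in CD104high and 3.11 to 4.13 times in CD104low.

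**Figure D1:**
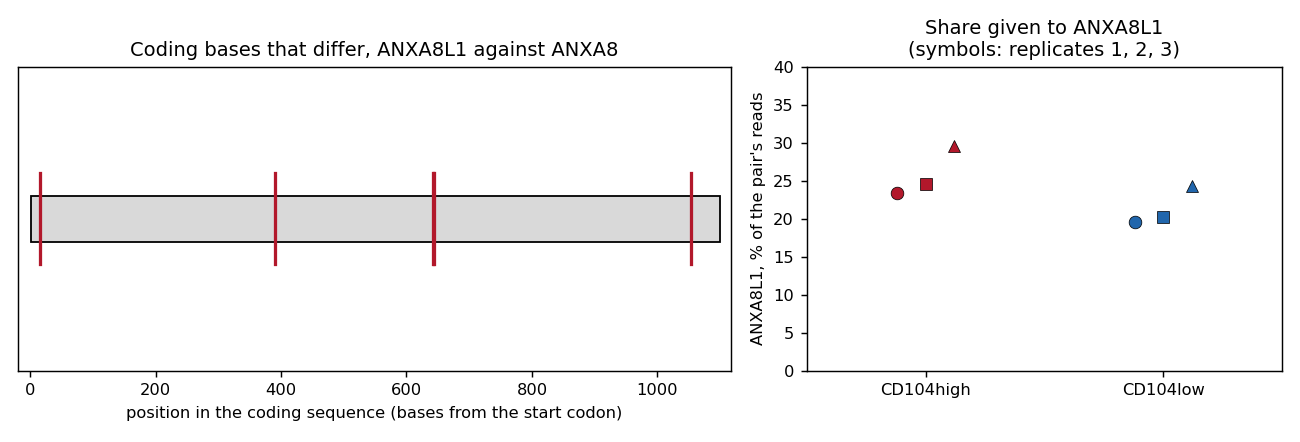
Left, the coding sequence of ANXA8L1 (bases from the start codon) with the 5 positions that differ from ANXA8 marked. Right, the share of the pair's scaled reads given to ANXA8L1 in each library, 23.3% to 29.6% in CD104high and 19.5% to 24.3% in CD104low, where symbols stand for replicates 1 to 3.

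ANXA1 binds S100A11 through its tail and is secreted as a ligand of formyl peptide receptors. It ran the other way from the ANXA8 pair, at 23793, 23839 and 29347 in CD104high, against 42797, 33819 and 45729 in CD104low. Every CD104high library was below every CD104low library, and the log2 difference was -0.66 (SE 0.12). Splines in transcript length and GC content were also fitted over genes in each library and subtracted before the fit (the length and GC correction). The log2 difference of ANXA1 was then -0.36. ANXA2, which forms a heterotetramer with S100A10, was at 85140.4, 79094 and 96234 in CD104high, against 81337, 77652 and 86818 in CD104low. Those ranges overlapped, with a log2 difference of 0.08 (SE 0.09). ANXA6, which unlike the others has a doubled core, was at 19134, 21746 and 21096 in CD104high, against 16968, 18869 and 19464 in CD104low, overlapping by the lowest CD104high library (0.16, SE 0.08).

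ANXA4, an annexin of secretory and epithelial membranes, was at 2196, 1857 and 2847 in CD104high, against 1276, 1226 and 1244 in CD104low. The populations did not overlap, and the CD104high libraries were spread widely (coefficient of variation 21.9%) beside the CD104low ones (2.02%). The log2 difference was 0.86 (SE 0.14). AAK1, a kinase gene on the opposite strand whose annotated span overlaps that of ANXA4, was at 3886 ± 143 in CD104high and 2940 ± 24.8 in CD104low (mean ± SD, 3 libraries each), and the sources used here do not say if reads were assigned by strand. ANXA3, first known from neutrophils, was at 13912, 14979 and 15859 in CD104high, against 17848, 15964 and 18768 in CD104low. The gap between the populations was narrow, the log2 difference was -0.23 (SE 0.08), and it became -0.01 with the length and GC correction. ANXA5, the protein used to stain exposed phosphatidylserine on dying cells, was at 31205, 33329 and 31014 in CD104high, against 31577, 31090.0 and 30916 in CD104low, a log2 difference of 0.03 (SE 0.06), or 0.20 with that correction.

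ANXA7 and ANXA11 carry long, proline-rich tails, and ANXA11 is known for tethering RNA granules to lysosomes. ANXA7 was at 7243, 7222 and 7596 in CD104high, against 7331, 7051 and 7477 in CD104low, with populations that overlapped and a log2 difference of 0.01 (SE 0.06, or 0.20 with the length and GC correction). ANXA11 was at 11530.4, 10986 and 12515 in CD104high, against 10166, 10228 and 10645 in CD104low. The populations did not overlap, at a log2 difference of 0.17 (SE 0.06), but the sign turned to -0.09 with the correction. ANXA8L1, ANXA8, ANXA7 and ANXA11 all lie on chromosome 10, the last 2 at 73375101 to 73414076 and 80150889 to 80205572.

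**Figure D2:**
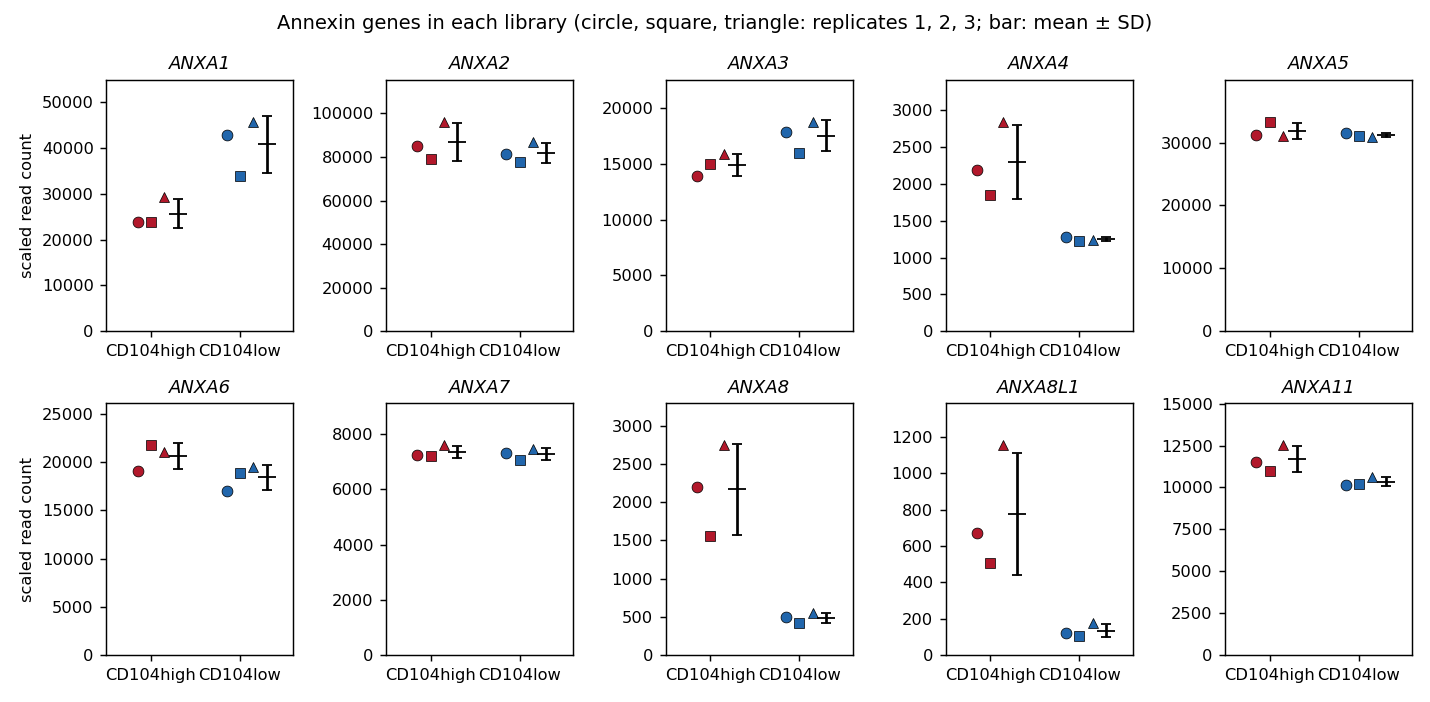
Scaled read count of each annexin gene (vertical axes start at 0) in the 3 CD104high and 3 CD104low libraries, with symbols for replicates 1 to 3 and bars for the mean ± SD. ANXA8, ANXA8L1, ANXA4 and, by a narrow margin, ANXA11 are higher and ANXA1 and ANXA3 lower in every CD104high library, while ANXA2, ANXA5, ANXA6 and ANXA7 overlap.

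Across the family 8 of 10 log2 differences were positive, and the median of the 10 was 0.12, where that of all 14420 genes tested was 0.02. Of the positive ones, those of ANXA2 (0.08, SE 0.09), ANXA5 (0.03, SE 0.06) and ANXA7 (0.01, SE 0.06) were smaller than their SE. That of ANXA7 was -0.003 with TMM scaling. The populations did not overlap for 6 members, 4 being higher (among them ANXA11, whose sign turns with the length and GC correction) and 2 lower in CD104high, and 54.3% of all genes tested did not overlap. In the limma fit over all genes, 3 members (ANXA8L1, ANXA8 and ANXA4) were past the threshold as higher in CD104high, and 2 (ANXA1 and ANXA3) as lower. The share of all genes tested past it was 43.4%, with 21.8% higher and 21.6% lower. Because the members were chosen on this contrast, nothing is read from the members' count. The summed annexin value was 204183 ± 14082 in CD104high and 209373 ± 12688 in CD104low (mean ± SD, 3 libraries each), with overlapping libraries. ANXA2 alone made up 40.5% to 43.7% of it in CD104high and 38.7% to 39.5% in CD104low. ANXA1 made up 12.1% to 13.3% of the sum in CD104high and 17.2% to 20.6% in CD104low.

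**Figure D3:**
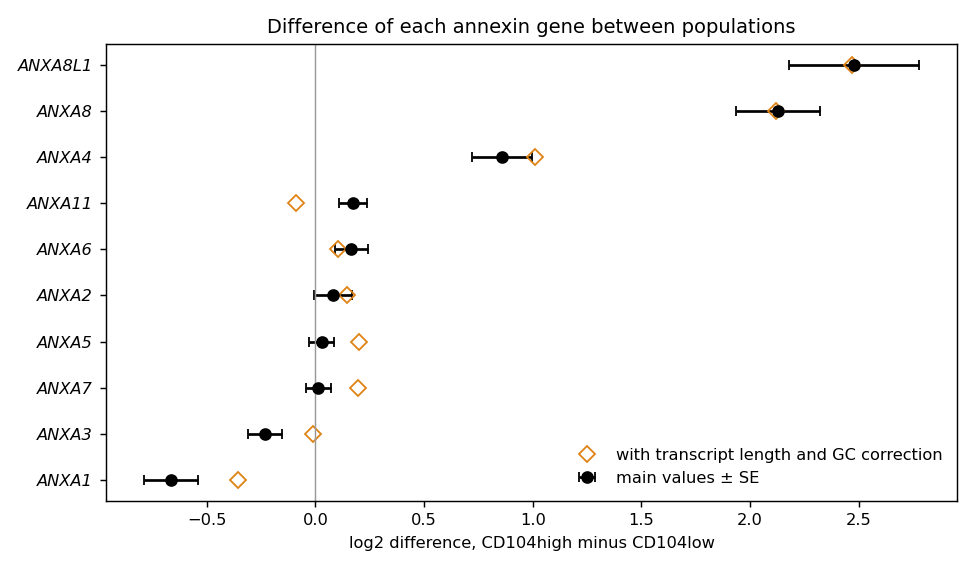
Log2 difference of each annexin gene, CD104high minus CD104low, as the main value ± SE (black) and with a correction for transcript length and GC content (open diamonds). ANXA8L1 and ANXA8 stay above 2 with the correction, ANXA1 is at -0.66 without it and -0.36 with it, and ANXA11 changes sign.

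Per kilobase of the longest annotated transcript, the order of levels in CD104high was ANXA2, ANXA5, ANXA1, ANXA6, ANXA3, ANXA7, ANXA11, ANXA8, ANXA4 and ANXA8L1. ANXA2 led in both populations, with 24610 ± 2464 scaled reads per kilobase in CD104high and 23224 ± 1307 in CD104low (mean ± SD, 3 libraries each). ANXA8L1 was last in both, at 357 ± 155 in CD104high and 61.5 ± 16.8 in CD104low. In CD104high only the neighbours ANXA4 (521 ± 114) and ANXA8L1 had overlapping ranges. In CD104low ANXA1 (18462 ± 2809) stood before ANXA5 (17704 ± 195), with overlapping ranges, and ANXA4 before ANXA8, without overlap. ANXA8 was at 997 ± 273 per kilobase in CD104high and 223 ± 29.4 in CD104low, and ANXA4 was at 283 ± 5.71 in CD104low. By these length-scaled levels the ANXA8 copies together stayed a minor part of the family, with 1.34% (ANXA8) and 0.477% (ANXA8L1) of it in CD104high, against 0.287% and 0.0787% in CD104low. With the median length of the annotated transcripts instead, ANXA11 stood before ANXA7 in both populations and ANXA4 also stood before ANXA8 in CD104high.

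**Figure D4:**
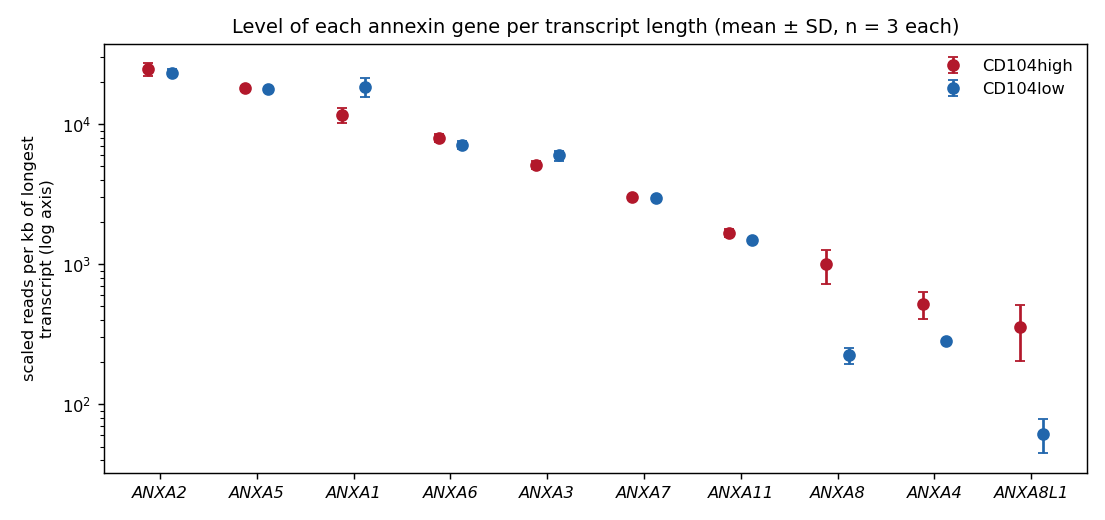
Scaled reads per kilobase of the longest annotated transcript (log axis, mean ± SD, n = 3 each) for each annexin gene, CD104high left of CD104low. ANXA2 is the highest in both populations and ANXA8L1 the lowest, at 357 in CD104high and 61.5 in CD104low.

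The members also moved between libraries of one population. Replicate 3 was the highest CD104high library for 8 of 10 members, ANXA5 and ANXA6 being the exceptions, and replicate 2 was the lowest CD104low library for 7. The same counts over all genes are not given, so this order is not read as a trait of the family. The coefficient of variation was widest for ANXA8L1, at 43.3% in CD104high and 27.4% in CD104low, and ANXA7 stayed at 2.86% in CD104high and 2.97% in CD104low. Without CD104high replicate 3 the log2 difference of ANXA8L1 was 2.15, and without CD104high replicate 2 it was 2.74. The genes nearest to ANXA8L1 were found by the root-mean-square difference of centred log2(value + 1) over the 6 libraries, among 12179 genes with a mean of at least 50. They were ALPP (0.12), SUSD2 (0.17), GGT5 (0.18), EHD3 (0.20) and CEMIP (0.24), and ANXA8 was next at rank 6 (0.26). ALPP, the placental alkaline phosphatase, was at 1510, 978 and 2621 in CD104high, against 297, 237 and 440 in CD104low. SUSD2, a sushi-domain membrane protein, was at 263, 192 and 454 in CD104high, against 50.3, 56.6 and 78.6 in CD104low. CEMIP, which takes part in the breakdown of hyaluronan, was at 14922, 11984 and 20216 in CD104high, against 2420, 3020 and 4798 in CD104low. In ANXA8L1 and each of these 3 genes, replicate 3 was the highest library of either population. The genes were picked for nearness to ANXA8L1 over these same libraries, so this likeness is not a separate result.

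The surroundings of both copies were read as well, as all listed genes within 100 kb. Of 3 near ANXA8L1, the long noncoding RNA gene LINC00842 rose in CD104high (log2 difference 1.15, limma adjusted p = 0.00206). NPY4R, a receptor gene of the neuropeptide Y family, also rose, at 51.3, 41.5 and 35.5 in CD104high, against 15.1, 14.2 and 15.7 in CD104low (1.44, adjusted p = 0.00465 by limma). The pseudogene HNRNPA1P33 was at 0.14 (limma adjusted p = 0.582). Near ANXA8, neither AGAP9 (0.23, limma adjusted p = 0.295) nor ZNF488 (0.57, limma adjusted p = 0.0642) passed. These are the only 5 such genes, and all of them were named after their values were seen.

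Promoter windows of 250 bases before to 50 after a start were at hand in RefSeq (GRCh38.p14) for 9 of 10 members, 13 windows in all. ANXA8L1 and ANXA1 are shown since they were the highest and the lowest of the log2 differences among the members with a window, each as the 250 bases before the start on the plus strand. Capitals mark the 1 GC box of ANXA8L1 and the 1 TATA motif of ANXA1.
ANXA8L1, chr10:46375526-46375775: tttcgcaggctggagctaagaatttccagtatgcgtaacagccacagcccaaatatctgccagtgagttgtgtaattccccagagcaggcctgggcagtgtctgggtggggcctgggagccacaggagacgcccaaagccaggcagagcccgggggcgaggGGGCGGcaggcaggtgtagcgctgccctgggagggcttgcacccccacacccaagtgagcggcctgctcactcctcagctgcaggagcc
ANXA1, chr9:73151615-73151864: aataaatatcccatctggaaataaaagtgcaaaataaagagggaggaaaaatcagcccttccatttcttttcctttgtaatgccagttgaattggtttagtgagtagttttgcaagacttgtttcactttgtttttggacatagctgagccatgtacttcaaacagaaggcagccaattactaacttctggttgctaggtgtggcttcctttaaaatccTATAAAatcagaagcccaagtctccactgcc
Motifs were searched on both strands of each 300-base window, and their shares are of 35116 such windows. The ANXA8L1 window held 1 GC box (GGGCGG, 45% of windows), whose first base lies at -89 and last at -84 from the start. GC boxes also stood in windows of ANXA2, ANXA4, ANXA5, ANXA6, ANXA7 and ANXA11, but in none of ANXA1 or ANXA3. The ANXA1 window held the TATA motif (TATAAA, 11.5% of windows) at -31 to -26. It also held a GAS match, TTC and GAA with any 3 bases between (7.66% of windows), just after the start. ANXA2 had TATA at the same distance and an AP-1 match (TGANTCA, 7.71% of windows), and ANXA11 had TATA at -61 to -56. An E-box (CACGTG, 7.26% of windows) stood in 1 window each of ANXA4 and ANXA6. The cyclic AMP response element was searched as TGACGTCA, which 1.85% of windows hold. Its first part TGACG, which overlaps it, was also searched, and 24.6% of windows hold it. The full element was in no member window, and the first part was in ANXA7 and in 2 windows of ANXA11. A match or its absence says nothing of binding. ANXA1 had no CpG in its window and a GC content of 37.7%, and the ratio of observed to expected CpG was 0.34 in ANXA8L1, where the median of all windows was 0.58. The first window of ANXA4, a member that was also higher in CD104high, had a ratio of 0.97.

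Genes of the proteins that annexins bind or work with were taken from 6 lists of 86 genes, of which 70 were tested. Of these, 22 rose and 6 fell in CD104high, by limma with an adjusted p under 0.05 over all genes tested. Of all genes tested, 21.8% rose and 21.6% fell. The lists were chosen with earlier results of these data known, so nothing is read from their counts beside these shares. Most partner genes named here and below were picked for the smallest p-values in each direction of their list. Their p-values therefore follow in part from that choice and describe these libraries only. Of 10 S100 genes 4 rose and 0 fell, with a median log2 difference of 0.42. S100A2 was at 4491, 6142 and 5359 in CD104high, against 2043, 2323 and 3100 in CD104low (log2 difference 1.11, SE 0.16, limma adjusted p = 0.00111). S100A4, a calcium-binding protein of motile cells, was at 33519 ± 6954 in CD104high and 16699 ± 2060 in CD104low (mean ± SD, 3 libraries each; 0.99, limma adjusted p = 0.00104). S100A10, the partner of ANXA2, rose to 20950.1, 22219 and 24154 in CD104high, against 18191, 18082 and 18061 in CD104low (0.31, SE 0.07, limma adjusted p = 0.00596), beside the 0.08 of ANXA2. S100A11, the partner of ANXA1, did not pass, at 0.09 (SE 0.10, limma adjusted p = 0.502). It was -0.020 without CD104high replicate 3. Under the length and GC correction it rose by 0.27 (limma adjusted p = 0.0446), and 7 S100 genes rose in all.

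AHNAK and AHNAK2 encode giant scaffold proteins, of which AHNAK is known to bind the ANXA2 and S100A10 complex. Both rose, AHNAK2 to 5133 ± 497 in CD104high, against 1421 ± 356 in CD104low (mean ± SD, 3 libraries each; log2 difference 1.88, limma adjusted p = 0.000228), and AHNAK by 0.91 (limma adjusted p = 0.00206). AHNAK was at 0.50 once length and GC content were corrected for. In this list of calcium-binding and scaffold partners 3 of 10 genes rose and 0 fell, and 6 rose with the correction. The falls numbered 2 with TMM scaling, edgeR, DESeq2 or the replicate block, and 2 without CD104high replicate 3 or without CD104low replicate 2. The third gene that rose in the main fit was PDCD6IP, named to spell out the count, which encodes the ESCRT-linked protein ALIX (0.17).

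Membrane repair genes gave 8 rises and 2 falls among 21, with a median of 0.12. SMPD1, the acid sphingomyelinase, was at 4564, 4664 and 4777 in CD104high, against 2461, 2724 and 2393 in CD104low (0.89, SE 0.07, limma adjusted p = 0.000202). EHD2, a membrane-shaping ATPase of caveolae, rose by 0.87 (SE 0.07, limma adjusted p = 0.000202). EHD1 (-0.28) and the ESCRT ATPase VPS4A (-0.28) fell, and were at -0.52 and -0.43 with the correction. EHD3 was at 93.4, 72.4 and 205 in CD104high, against 18.1, 15.2 and 35.9 in CD104low (2.32, SE 0.45). It was named as one of the genes nearest to ANXA8L1, so its difference follows from that choice and no test is read from it. Dysferlin (DYSF, 1.25) and myoferlin (MYOF, 0.72), calcium sensors of wound sealing that were named after their values were seen, were among the rises.

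**Figure D5:**
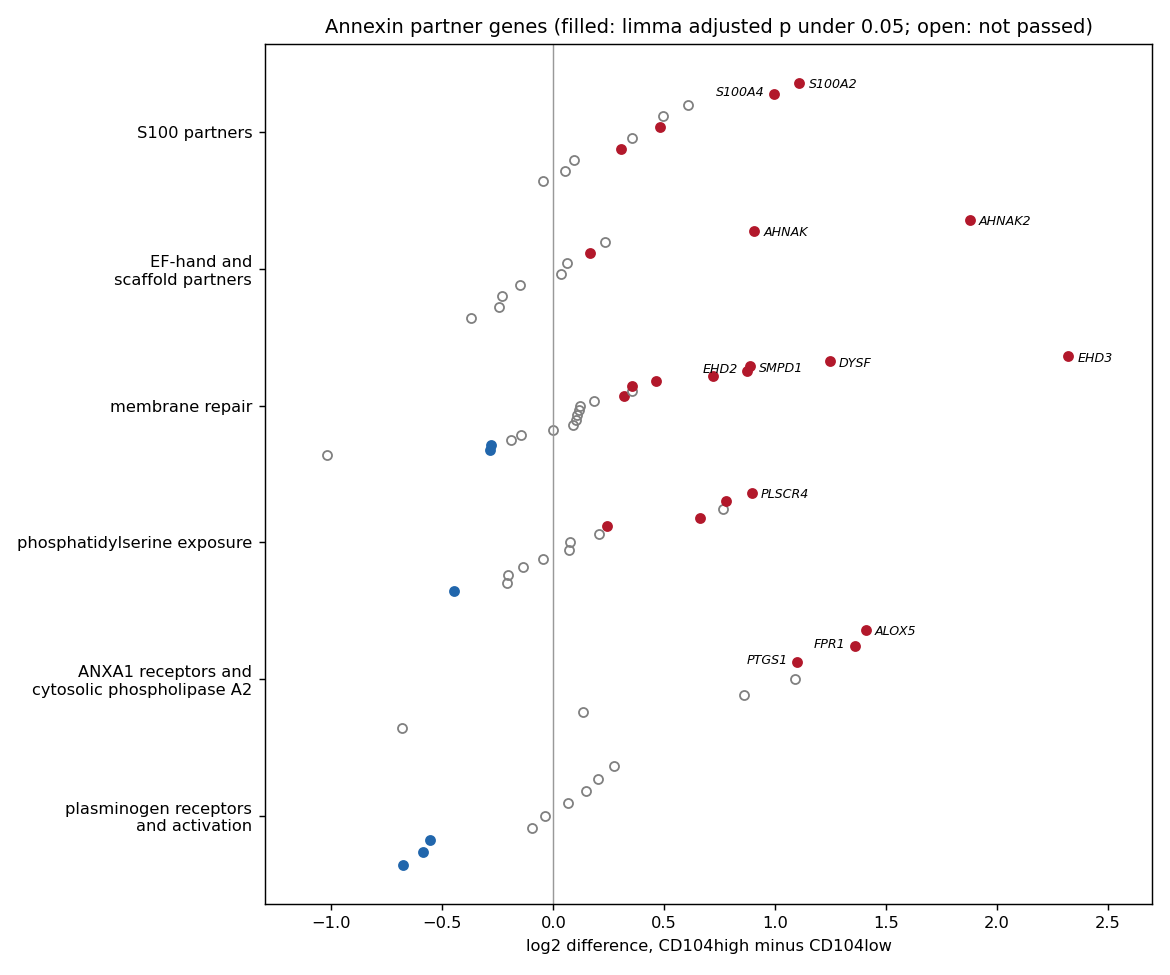
Log2 difference, CD104high minus CD104low, of 70 tested genes in 6 lists of annexin partners, filled where limma's adjusted p was under 0.05. Of these, 22 rose (red) and 6 fell (blue), and AHNAK2 and EHD3 lie farthest to the right.

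Genes that set phosphatidylserine exposure, the lipid annexins bind, gave 4 rises and 1 fall among 13, and 0 falls without CD104high replicate 1. The scramblase-family gene PLSCR4 rose by 0.89 (limma adjusted p = 0.000337) and the flippase ATP11A by 0.66, or 0.37 with the length and GC correction. Of 7 genes of ANXA1 receptors and eicosanoid synthesis 3 rose and 0 fell, while 5 rose without CD104low replicate 2 and 1 fell without CD104high replicate 2 or with the replicate block. FPR1, the formyl peptide receptor, was at 911, 1066 and 1309 in CD104high, against 354, 555 and 382 in CD104low (1.36, SE 0.19, limma adjusted p = 0.000996), beside -0.66 for its ligand gene ANXA1. ALOX5, the 5-lipoxygenase, rose by 1.41 (limma adjusted p = 0.00224). FPR1 and ALOX5 are also genes of myeloid cells, and the leukocyte marker LAPTM5 was higher in the same libraries, a relation that was not tested. In the list of plasminogen capture and activation 0 of 9 genes rose and 3 fell. With the replicate block 2 rose, and with quantile normalization 1 rose. Among the genes that fell were HMGB1 (-0.56), a chromatin protein that also binds plasminogen outside cells, and the protease inhibitor SERPINE2 (-0.68).

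Besides the 10 genes, 2 further annexins were in the table. ANXA9 was at 538, 575 and 427 in CD104high, against 254, 286 and 229 in CD104low (log2 difference 0.99, SE 0.15, limma adjusted p = 0.0014). ANXA10 was at 52.2 ± 4.83 in CD104high and 55.7 ± 19.3 in CD104low (mean ± SD, 3 libraries each), and did not pass (limma adjusted p = 0.922).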

How the data were processed

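Tools named in the submitters' processing notes are DESeq2, Salmon 1.3.0 and FastQC, with build GRCh38 (hg38), without their roles, the annotation release or filters. The authors' deposited table holds, per the file headers, a scaled read signal per gene and library, a log2 fold change with its SE, and a p-value and adjusted p-value. In every library 100% of the values were whole multiples of 1 step within 0.01, so whole numbers were recovered. If Salmon made them they are rounded estimates. Replicates of a population differed beyond sampling noise (chi-square per degree of freedom 13.5 to 46.3).

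Log2(value + 1) was fitted with limma 3.58.1 and an intensity trend (R 4.3.3) on 14420 genes that reached 10 in 3 or more libraries, with population as the only term and Benjamini-Hochberg adjustment over all of them. The fit was tested on simulated data. Such fold changes understate those of low genes. Alternatives used edgeR 4.0.16, DESeq2 1.42.0, other scalings, filters and pseudocounts, a replicate block, left-out libraries and splines in transcript length and GC content. GENCODE 29 gave positions and lengths for 99.8% of genes. Members and lists were chosen with earlier results of these data known. Named genes were all members, the 2 smallest p in each direction per list, S100A10, S100A11, label checks and the 5 genes nearest to ANXA8L1. Of these, 1 partner gene is not reported here.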

Additional observations from a re-analysis of the deposited data

How the results depend on the processing

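The log2 difference of ANXA8L1 (2.48) lay between 2.33 and 2.53 over 11 alternatives and between 2.15 and 2.74 with 1 library left out, and that of the summed pair (2.21) between 2.20 and 2.25 and between 1.99 and 2.44. The family median of 0.12 lay between 0.11 and 0.17, or 0.08 and 0.16 with 1 library left out. Past the threshold were 4 to 7 members (5 as reported), 25 to 40 partner genes (28) and, over the whole table, 5476 to 7876 genes (6257), or 4101 to 6395 with 1 library left out, the lowest being without CD104low replicate 1. On the recovered whole reads edgeR called 6267 genes and DESeq2 6613. S100A11 turned to -0.020 without CD104high replicate 3. With the replicate number as a block 7 members and 40 partner genes passed, against 5 and 28 without it. Deviations of same-numbered libraries correlated at 0.08, 0.36 and 0.32, and each library correlated best with its own number, a hint from the data and not from the design. Limits are 3 libraries per population, the uncertain division of reads between ANXA8 and ANXA8L1, and the length and GC correction, which moved ANXA1, ANXA3, ANXA5, ANXA7 and ANXA11 by more than their spread between replicates. The cause was not tested.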
